A study of Homo sapiens with 6 samples.

Results

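The genes described here are 10 members of the epidermal growth factor receptor (ERBB) system: the receptors EGFR, ERBB2 and ERBB3, the ligands HBEGF, AREG, EREG, TGFA and BTC, and the receptor inhibitors ERRFI1 and LRIG1. They were taken from the deposited gene table by exact gene name, and each matched 1 of its 29435 rows. Messenger RNA was sequenced from a culture labelled HepG2, an established human liver cancer line, grown in DMEM with fetal bovine serum and antibiotics. The control group received the solvent DMSO for 4 h. The treated group received 20 µM saikosaponin A, a triterpenoid saponin of Bupleurum roots, for the same 4 h. Each group had 3 libraries, nothing says whether these came from separate cultures, and p-values therefore measure only the spread between these libraries, which may be technical.

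ERBB receptors are tyrosine kinases of the cell surface that pair with one another when a ligand binds, and the pair then signals through the RAS to ERK cascade, PI3K and AKT, and STAT factors. The ligands are made as membrane proteins and released by sheddases such as ADAM17, while ERBB2 has no known ligand of its own and ERBB3 has little kinase activity. In hepatocytes EGFR is abundant and takes part in regeneration, and inhibitors such as ERRFI1 and LRIG1 limit how long and how strongly the receptors signal.

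The libraries held 57768359 to 74912492 counts each. In DMSO replicate 3 and saikosaponin A replicate 1 mitochondrial genes took 14.9% and 18.8% of counts, against 6.19% to 8.28% in the other 4 libraries. Levels are given below as the deposited FPKM (fragments per kilobase of gene, scaled to depth), which are per length, and changes as log2 fold changes of counts from edgeR's quasi-likelihood test, adjusted by Benjamini-Hochberg over the 11427 genes that reached 1 FPKM in 3 or more libraries. Changes across all genes followed transcript length, so the change of each of the 10 genes is also given with offsets that take out that trend (length offsets). Of 20 hepatocyte markers only 11 had a row. Of these, FOXA1 and CPS1 reached 1 FPKM and the other 9 were below 0.1. The epithelial keratin list reached summed levels of 269.7 to 442.3 FPKM. KRT7 and KRT17 were its only members at 1 FPKM or more, and 4 of its 6 genes with a row were below 0.1. In the fibroblast and stellate list 5 of 9 genes with a row reached 1 FPKM, with summed levels of 31.0 to 48.0 FPKM. Most liver markers were thus near 0 or, like ALB and AFP, had no row, which goes against the liver label of the culture. FOXA1 and CPS1 (163.9 FPKM in DMSO) went the other way. The identity of the culture was not tested, so its EGFR level cannot be taken as that of a hepatocyte-like line. Summed levels of the hepatocyte, fibroblast and keratin lists overlapped between groups. The endothelial list, with none of its 6 genes at 1 FPKM, summed to 0.982 to 1.03 FPKM in DMSO and 0.509 to 0.551 after saikosaponin A. Most of that sum was 1 gene, CDH5 (means of 0.867 and 0.443 FPKM), and the other 5 were below 0.1. The part of this list in the results was not tested.

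Promoter sequences are shown for the 4 genes that mark the spread of responses: EGFR with the largest fall, the neighbouring ligand genes AREG and EREG that moved in opposite directions, and ERRFI1, the inhibitor that was higher. RefSeq windows (GRCh38.p14) of 300 bases, from 250 before to 50 after a start, matched 9 of the 10 genes. Capitals mark matches, on either strand, to the cyclic AMP response element CRE (spelled TGACGTCA), the AP-1 site (spelled TGANTCA), the SP1 GC box (spelled GGGCGG), the TATA box (spelled TATAAA) or the CArG box. The windows are chr4:74444886-74445185 (plus strand) for AREG, chr4:74364895-74365194 (plus) for EREG, chr7:55018767-55019066 (plus) for EGFR and chr1:8026260-8026559 (minus) for ERRFI1.
AREG: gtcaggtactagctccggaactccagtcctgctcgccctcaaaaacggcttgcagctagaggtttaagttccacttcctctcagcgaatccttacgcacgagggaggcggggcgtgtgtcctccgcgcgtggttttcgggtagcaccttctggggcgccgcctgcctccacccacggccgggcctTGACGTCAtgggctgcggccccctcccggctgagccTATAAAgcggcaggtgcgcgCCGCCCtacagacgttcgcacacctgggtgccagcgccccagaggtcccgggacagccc
EREG: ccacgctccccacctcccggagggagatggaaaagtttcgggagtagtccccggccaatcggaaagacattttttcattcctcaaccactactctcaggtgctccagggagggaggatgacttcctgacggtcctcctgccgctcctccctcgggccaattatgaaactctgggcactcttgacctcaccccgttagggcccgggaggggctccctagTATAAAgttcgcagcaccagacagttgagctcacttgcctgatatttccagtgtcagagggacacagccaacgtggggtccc
EGFR: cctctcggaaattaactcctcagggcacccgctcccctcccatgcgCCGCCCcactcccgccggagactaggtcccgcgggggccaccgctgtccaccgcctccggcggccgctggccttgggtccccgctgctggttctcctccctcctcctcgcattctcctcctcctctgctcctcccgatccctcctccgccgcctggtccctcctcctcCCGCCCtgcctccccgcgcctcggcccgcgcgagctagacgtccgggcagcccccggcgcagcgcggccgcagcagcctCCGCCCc
ERRFI1: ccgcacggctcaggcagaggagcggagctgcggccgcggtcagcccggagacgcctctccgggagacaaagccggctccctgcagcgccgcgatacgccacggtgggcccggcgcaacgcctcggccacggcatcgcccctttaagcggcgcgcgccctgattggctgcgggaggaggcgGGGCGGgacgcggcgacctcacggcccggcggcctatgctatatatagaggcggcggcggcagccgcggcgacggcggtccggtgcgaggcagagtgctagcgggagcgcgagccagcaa
The AREG window held a CRE at position -65, a TATA box at position -29 and a GC box at position -9, counted from the start at position 1. A CRE was present in 1.85% and a TATA box in 11.5% of the 35116 RefSeq windows of this length. The EREG window held a TATA box at position -32 and no CRE or GC box. The EGFR window held 3 GC boxes and no TATA box, and that of ERRFI1 held 1 GC box, a motif present in 45.0% of all windows. GC content was 75.3% for EGFR and 74.7% for ERRFI1 but 66.3% for AREG and 57.7% for EREG, with a median of 58.7% over all windows. None of the 4 windows held an AP-1 site (7.71% of all windows) or a CArG box (1.29%). RefSeq gives EGFR another window, at a start inside the gene (chr7:55109589-55109888), with 2 AP-1 sites, 2 TATA boxes and a GC content of 42.0%. A match describes the letters only, and its absence says nothing about a factor.

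In DMSO libraries EGFR stood far above every other member, and the ligands were near or below 1 FPKM. EGFR averaged 219.9 ± 5.19 FPKM (SD, n = 3), which placed it 82nd to 107th among all rows of a library by FPKM and 16th to 19th by count. ERBB2 followed at 5.18 ± 0.312 FPKM. LRIG1 (3.20 ± 0.0662) and ERRFI1 (3.10 ± 0.375) came next, and their ranges overlapped. EREG (1.20 ± 0.0368), HBEGF (1.15 ± 0.265) and TGFA (1.06 ± 0.110) overlapped neighbour by neighbour, ERBB3 lay lower at 0.771 ± 0.0610, and AREG (0.324 ± 0.0403) and BTC (0.0810 ± 0.0341) were lowest. After saikosaponin A, EGFR and ERBB2 were still the highest, but ERRFI1 (3.46 ± 0.464) overlapped ERBB2 (3.78 ± 0.202) and lay above LRIG1 (1.84 ± 0.328). HBEGF, TGFA, AREG, EREG and ERBB3 then formed a run in which each overlapped the next.

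**Figure D1:**
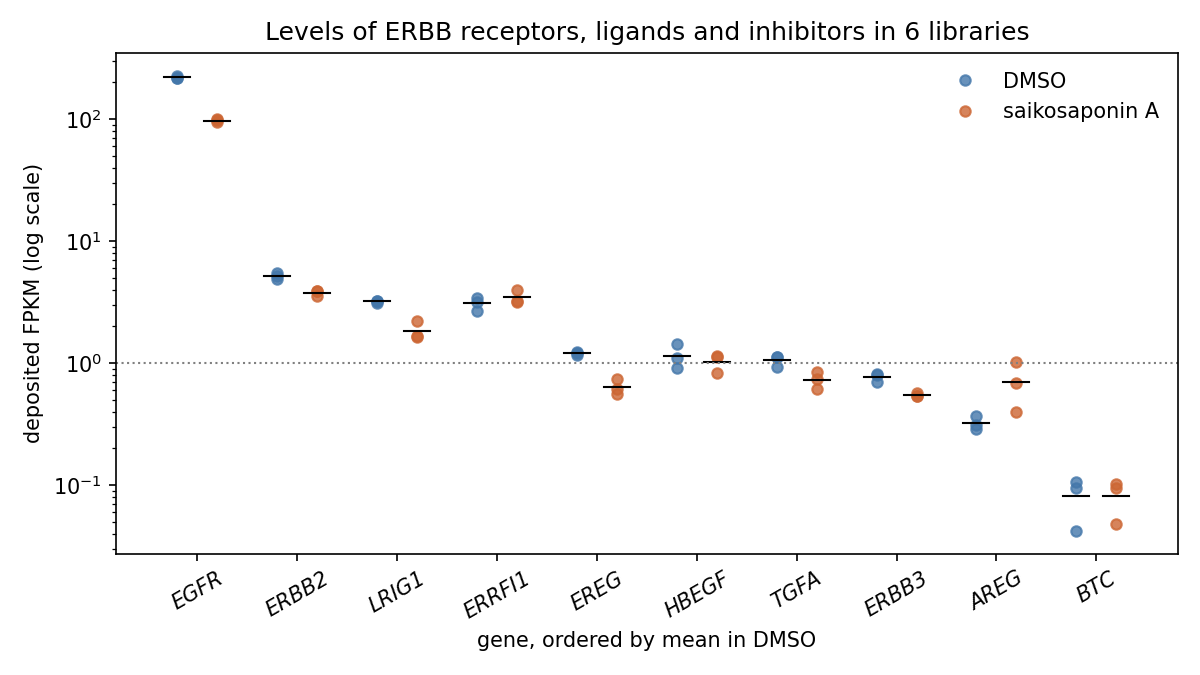
Deposited FPKM (log scale) of the 10 genes in each of the 3 DMSO and 3 saikosaponin A libraries; points are libraries, black lines are group means and the dotted line is 1 FPKM. EGFR lies at 216.9 to 225.9 in DMSO and 93.7 to 99.1 after saikosaponin A, while the ligands lie near or below 1.

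Of the 10 genes, 6 passed the filter on low values, and 4 of these were called lower and 1 higher at an adjusted p below 0.05 in edgeR's test. Over all 11427 tested genes 27.9% were called lower and 25.9% higher. ERBB3, AREG, TGFA and BTC did not pass, and EREG passed only through its 3 DMSO libraries. All 10 were therefore also tested among 17831 genes kept by edgeR's filterByExpr, which uses counts in place of FPKM. There 4 were lower and 2 higher, beside 19.3% and 19.2% of all genes, and the median log2 change was -0.25 over the 10 genes against 0.01 over all 17831. Values that do not overlap between groups are common here: 62.8% of the 11427 genes had CPM (counts scaled to depth) without overlap.

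EGFR, the receptor for EGF, AREG and TGFA, was lower in every treated library. Its FPKM were 216.9, 216.9 and 225.9 in the DMSO libraries and 99.1, 97.3 and 93.7 in the saikosaponin A libraries. The groups lay far apart, with a spread within each group of a few FPKM. Its counts fell by 1.02 ± 0.12 on the log2 scale (SE, n = 3 per group), which is 2.03-fold (adjusted p 5.93e-04 in edgeR's test). EGFR took 0.305% to 0.334% of all counts in DMSO libraries and 0.136% to 0.146% after saikosaponin A, and its rank by count moved to 47th to 70th. Fewer cells of a type and less RNA per cell cannot be told apart in such bulk samples.

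The fall of EGFR was about as large between the 2 libraries of high mitochondrial share (log2 change -1.06) as between the 4 of low share (-1.0). The high-share value compares 1 library with 1 and has no spread. Of the 11427 tested genes, 608 (5.32%) had a log2 change at or under that of EGFR. Its longest transcript, 9821 nt in GENCODE 29, put it among the longest 1004 tested protein-coding genes (7543 to 34526 nt), whose median log2 change was -0.66 with quartiles of -1.02 and -0.30. With length offsets the log2 change of EGFR was -0.29 ± 0.08 (adjusted p 0.0351), still a call, and with the replicate number as a block as well the adjusted p was 0.154. The antisense gene EGFR-AS1 overlaps EGFR on the other strand, and the strand setting of the counting is not stated in the labels or the table.

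Of 11 tested protein-coding genes within 1 megabase of EGFR on chromosome 7, 6 were called higher and 3 lower, beside 25.9% and 27.9% of all tested genes. The nearest of these, LANCL2, fell by 0.26 ± 0.06 on the log2 scale (adjusted p 0.0118), whereas SEC61G rose by 0.78 ± 0.24 (0.0287) and CHCHD2 by 0.93 ± 0.20 (0.00835). ZNF713 fell by 0.74 ± 0.11 (0.00142). With length offsets ZNF713 was still called (-0.53, adjusted p 0.00649), and LANCL2 (-0.0436, 0.663), SEC61G (0.19, 0.511) and CHCHD2 (0.14, 0.528) were not. These neighbours were picked after their values had been seen. Among the tested genes with the highest correlation of log2 CPM with EGFR over the 6 libraries were PDE3A (r = 0.9999) and SRGAP1 (0.9996), and 381 of 11426 genes reached 0.99.

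ERBB2, the preferred partner of the other receptors, was lower to a smaller extent. Its FPKM were 5.51, 5.14 and 4.89 in DMSO and 3.55, 3.90 and 3.89 after saikosaponin A, and the groups did not overlap. Counts fell by 0.29 ± 0.07 on the log2 scale (adjusted p, edgeR, 0.00926). With length offsets the change of ERBB2 was 0.0022 (adjusted p 0.982), so its call and its direction were lost. MIEN1 and PGAP3 overlap ERBB2 on the other strand.

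ERBB3, which pairs with ERBB2 in neuregulin signalling, was below 1 FPKM in every library. Its FPKM were 0.820, 0.791 and 0.703 in DMSO and 0.532, 0.537 and 0.564 after saikosaponin A, on 330 to 600 counts per library. Although these values did not overlap between groups, ERBB3 was not called among the genes kept by filterByExpr (log2 change -0.28 ± 0.12, adjusted p 0.113). With library totals in place of TMM scaling it was called lower (-0.48, adjusted p 0.0231), and with length offsets its value was 0.14 (0.434).

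The receptors were then compared with one another inside each library. The ratio of EGFR to ERBB2 counts was 47.6, 51.1 and 55.9 in DMSO libraries and 33.8, 30.1 and 29.1 after saikosaponin A, without overlap. The ratios and differences given here carry no length offsets. With the offsets the log2 change was -0.29 for EGFR and 0.0022 for ERBB2. On the log2(FPKM + 1) scale the change of EGFR exceeded that of ERBB2 by 0.81 and that of ERBB3 by 0.98 in size, and that of ERBB2 exceeded ERBB3 by 0.17. Each of the 3 pairs gave a two-sided exact permutation p of 0.1, the smallest that 3 against 3 libraries allow, and 0.1 after adjustment. On log2 counts with a prior count of 2 the EGFR and ERBB3 difference was -0.68 and that of ERBB2 and ERBB3 was 0.05, with an exact permutation p of 0.5 for the latter. The pseudocount shrinks the change of a gene as low as ERBB3, and both EGFR contrasts kept their sign on either scale.

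**Figure D2:**
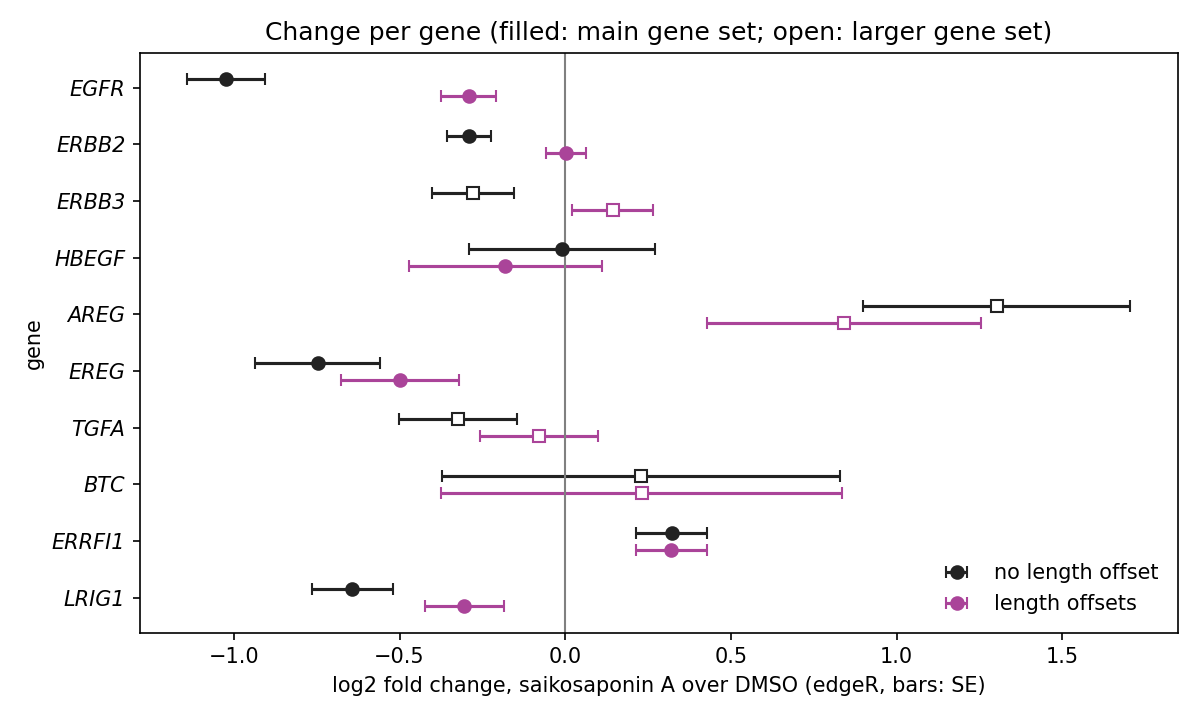
Log2 fold change of counts per gene, saikosaponin A over DMSO (edgeR, bars are the SE), without (black) and with (purple) length offsets; filled symbols come from the main set of 11427 genes and open squares from the 17831 genes kept by filterByExpr. EGFR moves from -1.02 to -0.29 and ERBB2 from -0.29 to 0.0022 with the offsets, while ERRFI1 is at 0.32 in both but is called only without them (adjusted p 0.0390 and 0.0593).

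Among the ligands, AREG and EREG moved apart. AREG encodes amphiregulin, a low-affinity EGFR ligand induced in liver injury. Its FPKM were 0.291, 0.312 and 0.369 in DMSO and 0.689, 1.02 and 0.396 after saikosaponin A, on 40, 44 and 43 counts and then 80, 135 and 49. All 3 treated libraries were above all DMSO libraries, but treated replicate 3 only just. Among the genes kept by filterByExpr its log2 change was 1.3 ± 0.40, 2.46-fold higher (edgeR adjusted p 0.0370). That call was lost in 7 of 11 alternatives, among them without saikosaponin A replicate 2 (adjusted p 0.140), saikosaponin A replicate 1 (0.0713), DMSO replicate 1 (0.113) or DMSO replicate 2 (0.103), and with length offsets (0.84, 0.173), with log2 changes of 0.84 to 1.6 over all 11.

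EREG encodes epiregulin, a ligand of EGFR and ERBB4. Its FPKM were 1.22, 1.23 and 1.16 in DMSO and 0.738, 0.609 and 0.557 after saikosaponin A, with no overlap. Counts fell by 0.75 ± 0.19 on the log2 scale (adjusted p, edgeR, 0.0141), which is 1.68-fold. Because EREG entered that test only through the DMSO libraries, where it is high, its value among the genes kept by filterByExpr is also given: -0.69 ± 0.18 (adjusted p 0.0188). Its log2 change was -0.52 between the 2 libraries of high mitochondrial share (1 per group) and -0.89 between the 4 of low share. In the main set EREG was not called without saikosaponin A replicate 2 (adjusted p 0.0537) or with length offsets (-0.50, adjusted p 0.0722). Its call among the genes kept by filterByExpr was lost without DMSO replicate 1 or 2 or without saikosaponin A replicate 2 or 3. With length offsets it was not called there either (-0.41, adjusted p 0.111).

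AREG and EREG lie 56387 nt apart on chromosome 4 in the same orientation. Within libraries the ratio of AREG to EREG counts was 0.0701, 0.0743 and 0.0947 in DMSO and 0.271, 0.484 and 0.205 after saikosaponin A. Every treated library lay above every DMSO library in this ratio, which does not depend on scaling between libraries. The ratio still carries the length trend, as the AREG transcript (1240 nt) is shorter than that of EREG (4619 nt). With length offsets among the genes kept by filterByExpr, the log2 changes were 0.84 for AREG and -0.41 for EREG, and neither was called. The chemokine gene CXCL2, 265950 nt from EREG, rose by 3.17 ± 0.24 on the log2 scale (adjusted p 1.50e-04) in the same neighbourhood. CXCL2 reached 1 FPKM only in the treated libraries; among the genes kept by filterByExpr its change was 3.23 ± 0.24 (adjusted p 1.57e-04), and with length offsets in the first set it was 2.58 (7.77e-04).

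HBEGF, which encodes the heparin-binding ligand of EGFR and ERBB4, was not called. Its FPKM were 1.10, 0.905 and 1.43 in DMSO and 1.14, 1.11 and 0.833 after saikosaponin A, with overlapping groups. The log2 change was -0.01 ± 0.28 (adjusted p 0.981, edgeR). The SE of HBEGF was about as large as the called changes of ERBB2 (-0.29) and ERRFI1 (0.32), so a change of that size could be missed. With length offsets the HBEGF value was -0.18 ± 0.29 (adjusted p 0.670). TGFA, the transforming growth factor alpha gene, had 0.934, 1.13 and 1.12 FPKM in DMSO and 0.610, 0.738 and 0.838 after saikosaponin A. Its FPKM did not overlap but its scaled CPM did, and its log2 change was -0.32 ± 0.18 (adjusted p 0.192, filterByExpr). The TGFA value with length offsets was -0.08 ± 0.18 (adjusted p 0.786). Between the 2 libraries of high mitochondrial share (1 per group) the TGFA change was -0.73 and between the 4 of low share -0.20. BTC, the betacellulin gene, had 10 to 23 counts per library and 0.0422 to 0.106 FPKM, and no difference could be detected at this depth (log2 change 0.23 ± 0.60, adjusted p 0.798, and 0.23 with length offsets, adjusted p 0.814).

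The summed FPKM of the 5 ligands was 3.65, 3.61 and 4.17 in DMSO and 3.27, 3.58 and 2.67 after saikosaponin A. All 3 treated sums were below all DMSO sums, that of treated replicate 2 only just. This order holds for FPKM and was not tested on scaled CPM, where TGFA and HBEGF overlapped between groups. On the FPKM scale more genes were lower: limma on log2(FPKM + 1) called 3723 lower and 914 higher. AREG made up 7.96% to 8.84% of that sum in DMSO and 14.8% to 28.4% after saikosaponin A, while EREG made up 27.8% to 33.9% and then 17.0% to 22.6%.

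**Figure D3:**
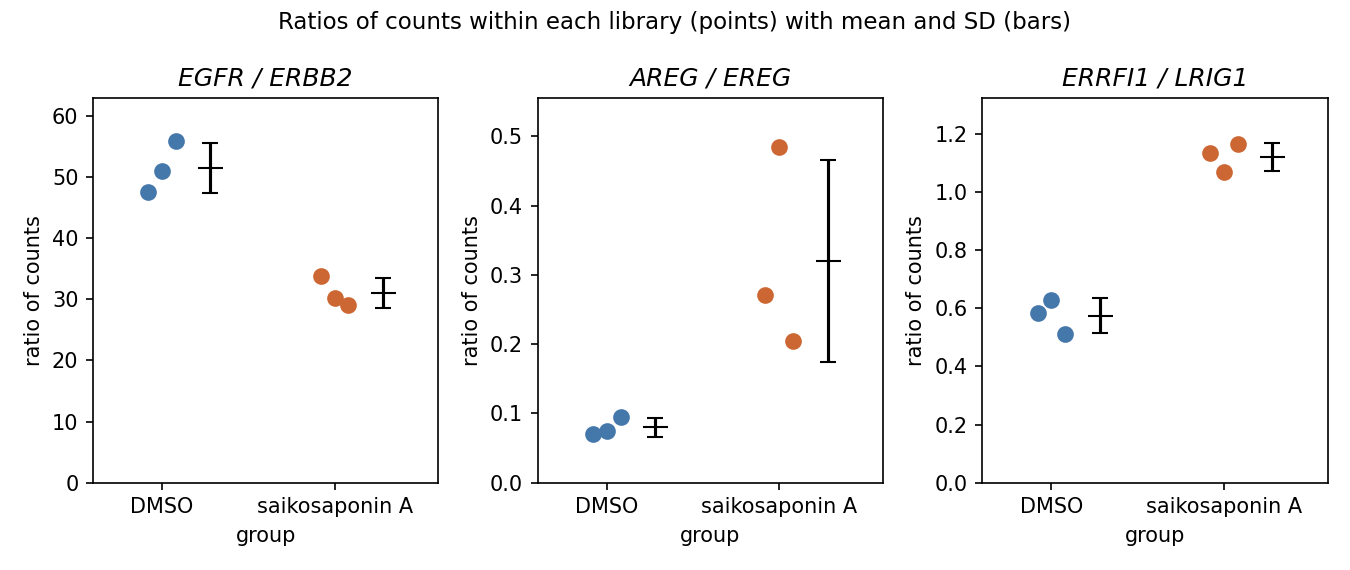
Ratios of counts within each library for EGFR to ERBB2, AREG to EREG and ERRFI1 to LRIG1 in the DMSO and saikosaponin A groups; points are libraries and bars the mean with SD, on axes that start at 0. In all 3 panels the groups do not overlap, and the treated libraries are lower for EGFR to ERBB2 and higher for the other ratios. The ratios carry no length offsets, and the genes of each pair differ in transcript length.

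The inhibitors differed in direction. LRIG1, a transmembrane protein that promotes degradation of ERBB receptors, had 3.23, 3.25 and 3.12 FPKM in DMSO and 1.66, 2.21 and 1.63 after saikosaponin A. The groups did not overlap, and treated replicate 2 was the highest of its group. Counts fell by 0.64 ± 0.12 on the log2 scale (adjusted p, edgeR, 0.00475), 1.56-fold. With length offsets the value was -0.30 (adjusted p 0.0907), short of the threshold. SLC25A26 overlaps LRIG1 on the other strand.

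ERRFI1 encodes a cytoplasmic inhibitor, also called MIG6, that binds the EGFR kinase domain. Its FPKM were 3.18, 3.43 and 2.69 in DMSO and 3.18, 3.99 and 3.20 after saikosaponin A, which overlapped. Its scaled CPM were 14.0, 15.1 and 13.7 and then 17.7, 19.7 and 16.0, which did not. The log2 change was 0.32 ± 0.11 (edgeR adjusted p 0.0390), 1.25-fold. That call was lost in 12 of 19 alternatives, including leaving out any library other than saikosaponin A replicate 3, with log2 changes of 0.12 to 0.39 throughout. With length offsets the value was 0.32 ± 0.11 (adjusted p 0.0593) in the main set and 0.44 ± 0.11 (0.0211), a call, among the genes kept by filterByExpr. The ratio of ERRFI1 to LRIG1 counts within libraries was 0.585, 0.629 and 0.512 in DMSO and 1.13, 1.07 and 1.16 after saikosaponin A. This ratio carries no length offsets, with which LRIG1 was at -0.30 in the main set. The genes closest to ERRFI1 by log2 CPM over the 6 libraries were AL109811 (r = 0.994), LGALSL (0.993) and PLA2G3 (0.992), with 4 of 11426 at 0.99 or more.

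Length placed the 10 genes in different parts of the transcript range. AREG (1240 nt) was above the quartiles of its length group, where the median log2 change was 0.64, and ERRFI1 (3104 nt, median 0.02) was above those of its own. EREG (4619 nt, median -0.18), LRIG1 (5283 nt, -0.32) and HBEGF (2386 nt, 0.29) lay below the quartiles of theirs. EGFR, ERBB2, ERBB3, TGFA and BTC lay between the quartiles. EGFR alone of the 6 genes in the main set was still called with the length offsets, whose slope came from protein-coding genes, beside 13.4% lower and 17.8% higher over all tested genes. Among the 17831 genes kept by filterByExpr, EGFR (lower) and ERRFI1 (higher) were called with length offsets, beside 9.26% lower and 18.1% higher over all. With a slope over all tested genes, which left part of the trend in place, EREG, LRIG1 and ERRFI1 were called as well and ERBB2 was not (-0.10, adjusted p 0.227).

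**Figure D4:**
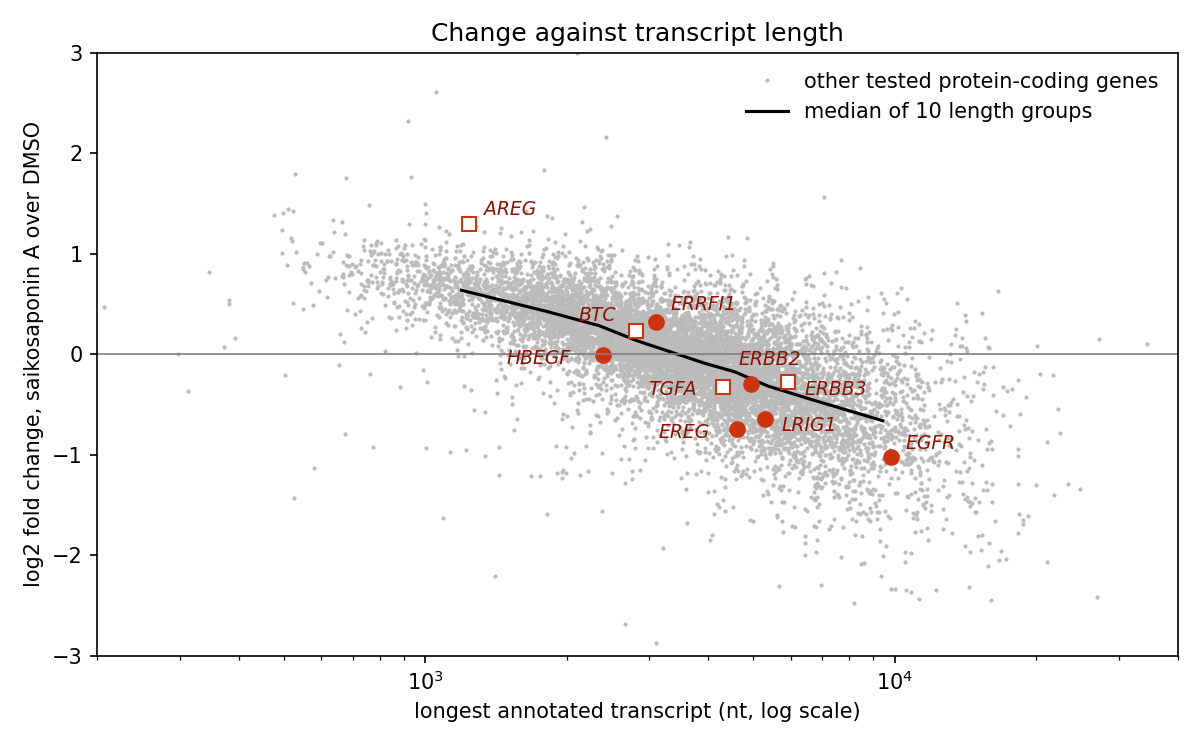
Log2 fold change against the longest annotated transcript (nt, log axis) for 10040 tested protein-coding genes (grey), the median of 10 length groups (line) and the 10 named genes (red, filled in the main set and open in the larger set); 11 genes lie outside the plotted range of 3 on either side. The medians run from 0.64 in the shortest group to -0.66 in the longest, and EGFR at 9821 nt lies near the lower quartile of its group.

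The rest of the pathway was counted in 9 lists holding 143 genes, of which 113 were tested, with 25 higher and 47 lower (median log2 change -0.14). Over all tested genes the median was 0.03, with 2956 higher and 3190 lower. With length offsets the lists held 32 higher and 12 lower, and all tested genes 2036 higher (17.8%) and 1533 lower (13.4%). Of the other receptor and ligand genes, ERBB4, EGF, EPGN, NRG1 and NRG2 were not tested, and the only tested one, NRG4 (a ligand of ERBB4), was not called (-0.12 ± 0.16, adjusted p 0.576).

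Among genes acting on the ligands and directly on the receptors, most calls in the main set were in the lower direction. Over all genes of that set 27.9% were called lower and 25.9% higher. Of 7 tested shedding genes 3 fell and none rose: ADAM17, the main sheddase of TGFA, AREG and HBEGF, from 3.78 ± 0.564 to 2.64 ± 0.245 FPKM (log2 change -0.35), ADAM10 (-0.28), the sheddase of BTC, and FRMD8 (-0.53), which stabilises the ADAM17 complex. Among the genes kept by filterByExpr 2 of 11 shedding genes fell and 2 rose, beside 19.3% and 19.2% of all genes. Of 16 adaptors 11 fell and none rose, led by the phospholipase PLCG1 (-0.69 ± 0.07, adjusted p 3.51e-04), the exchange factor VAV2 (-0.82 ± 0.08, 3.51e-04) and the docking protein GAB2 (-1.02 ± 0.12, 7.27e-04). Of 14 other inhibitors and feedback genes 10 fell, among them SOCS4 (-0.71), TNK2 (-0.93) and PTPN1 (-0.63), and the phosphatase gene DUSP5 rose (1.38 ± 0.19, adjusted p 0.00129). LRIG2, counted among those that fell (-0.79), entered this test only through the DMSO libraries. Among the genes kept by filterByExpr 11 of 20 adaptors fell and none rose, and 9 of 18 inhibitors fell and 2 rose. In the main set with length offsets, ADAM10 was called higher (0.55, adjusted p 0.00775), ADAM17 was at 0.12 (0.356) and FRMD8 at -0.42 (0.10). No shedding gene was then lower and 3 were higher, beside 13.4% lower and 17.8% higher over all tested genes. Of the adaptors 1 was then higher and 3 lower, with PLCG1 no longer called (-0.15, adjusted p 0.230), and of the inhibitors 1 was higher and 4 lower, with SOCS4 no longer called (-0.22, 0.0915).

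Downstream of the receptors the RAS to ERK list was mixed, with 3 higher and 4 lower of 12 tested. Over all tested genes 25.9% were called higher and 27.9% lower, and the counts of this list and of the uptake list were near those shares. BRAF, counted among the lower genes (-0.50), entered this test only through the DMSO libraries. Among the genes kept by filterByExpr 3 of 13 were higher and 4 lower, beside 19.2% and 19.3% of all genes. HRAS (0.80 ± 0.14, adjusted p 0.00293), MAP2K1 (0.38) and MAP2K2 (0.31) rose, and the kinase RPS6KA3 (-0.46 ± 0.05, adjusted p 6.30e-04) was among those that fell. Of 9 PI3K and AKT genes 7 fell and none rose, led by PDPK1, the kinase that activates AKT (-1.15 ± 0.09, adjusted p 1.66e-04), and including PIK3R3 (-0.43). STAT3 (-0.40) and JAK1 (-0.25) fell, of 5 STAT arm genes tested. Among the genes kept by filterByExpr 7 of 11 PI3K and AKT genes and 1 of 6 STAT arm genes fell, and none rose. In the list for receptor uptake and degradation 4 of 25 rose and 8 fell: CBL, the ubiquitin ligase that marks EGFR for degradation, went from 5.67 ± 0.280 to 2.32 ± 0.172 FPKM (-1.13 ± 0.08, adjusted p 1.20e-04), while the clathrin adaptor subunits AP2M1 (0.35) and AP2S1 (0.66) rose. Among the genes kept by filterByExpr 5 of 26 uptake and degradation genes rose and 7 fell. In the fit with length offsets 17.8% of all tested genes were higher and 13.4% lower. The PI3K and AKT list then held 2 higher and 1 lower, and the RAS to ERK list 4 and 1. The STAT list held 0 and 0, and the uptake and degradation list 6 and 2. HRAS (0.21, adjusted p 0.176), RPS6KA3 (0.15, 0.0941), PIK3R3 (-0.06, 0.602), STAT3 (-0.10, 0.243), JAK1 (0.06, 0.534), AP2M1 (0.10, 0.226) and AP2S1 (-0.10, 0.344) were then not called, whereas CBL (-0.31, adjusted p 0.0216), VAV2 (-0.51), GAB2 (-0.59), PDPK1 (-0.61), PTPN1 (-0.47) and TNK2 (-0.51) were still called lower.

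Among genes known to be induced early by EGF, 17 of 24 tested rose and 2 fell, with a median log2 change of 0.72. Over all tested genes 25.9% rose and 27.9% fell. FOSB, EGR1 and MAFF entered this test only through the treated libraries; among the genes kept by filterByExpr 18 of 27 rose and 2 fell, with a median of 0.78. FOS rose from 1.24 ± 0.196 to 20.2 ± 4.03 FPKM (4.18 ± 0.17, adjusted p 3.94e-05), FOSB from 0.183 ± 0.0332 to 6.53 ± 1.63 and JUN from 1.28 ± 0.0951 to 14.5 ± 3.66. The 2 that fell were TRIB1 (-0.76) and VEGFA (-0.28), which encode a pseudokinase and the vascular endothelial growth factor. With length offsets 15 were higher and 1 lower, beside 17.8% and 13.4% of all tested genes. FOS (3.95), FOSB (5.43) and JUN (3.74) were still called, and VEGFA was then higher (0.59, adjusted p 0.00477). Among the genes kept by filterByExpr the log2 change of FOSB was 5.37, and 5.54 with length offsets. Many stimuli other than EGF also induce the genes of this list.

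**Figure D5:**
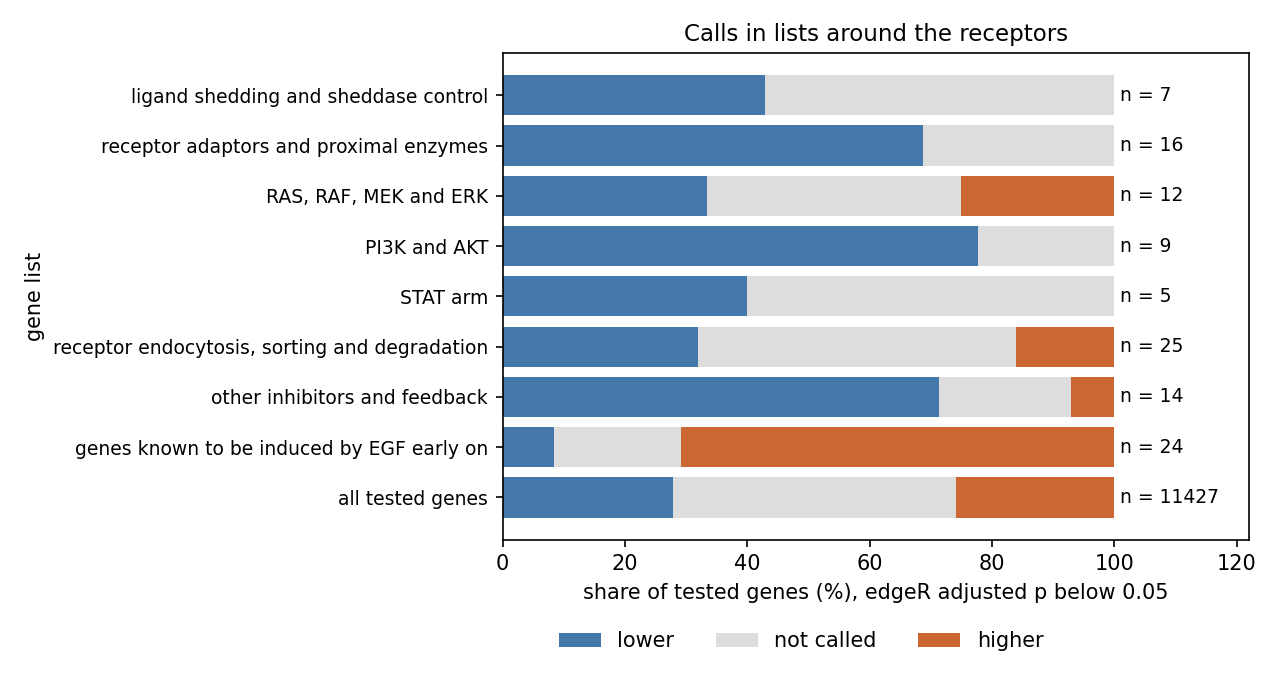
Share of tested genes called lower (blue), not called (grey) and higher (orange) in each list (edgeR adjusted p below 0.05, without length offsets), with the number tested at the right and all 11427 tested genes in the bottom bar. The list of other receptors and ligands (1 tested) is not drawn. Blue is the longest part for the PI3K and AKT (7 of 9), adaptor (11 of 16) and inhibitor (10 of 14) lists. Orange is the longest for the genes induced early by EGF (17 of 24).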

How the data were processed

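Per the file headers, the deposited table holds raw counts and FPKM per gene for 6 libraries; the authors deposited whole-number counts, and deposited FPKM were already scaled for length and depth. Poly(A) RNA was made into libraries with dUTP strand marking, per the labels' protocols. The submitters' processing notes name cutadapt 1.9, HISAT2 2.0.4, StringTie 1.3.4d and GRCh38; the annotation, the counting step and its strand setting are not stated there or in the labels.

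Genes were kept with FPKM of at least 1 in at least 3 libraries (11427 of 29435), scaled by TMM and tested with edgeR 4.0.16 (R 4.3.3), with Benjamini-Hochberg adjustment over all of them. The 4 genes below that filter were tested among 17831 genes kept by filterByExpr, with alternatives added after seeing the data. Alternatives used DESeq2 1.42.0, limma 3.58.1 on log2(FPKM + 1) and log2(FPKM + 0.1), other scalings, no filter, left-out libraries, mitochondrial share, a replicate block and length offsets. Offsets remove a per-library linear trend on the log2 length of the longest GENCODE 29 transcript; the slope was fitted on protein-coding genes, a choice made after seeing that a slope over all genes left a trend. Scripts were tested on simulated data. Divided counts and FPKM imply a length about 1.15 times the union of exons. Motifs were searched in RefSeq windows. All 10 genes are named; from each list up to 3 called genes of smallest p without overlap between groups are named, plus those needed to account for a count; some genes this rule picks are not reported here. Members and lists were chosen with earlier results of these data known. Counting intervals are not given because counts carry no molecular identifiers.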

Additional observations from a re-analysis of the deposited data

How the results depend on the processing

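EGFR was called lower in 18 of 19 alternatives, LRIG1 in 17 and EREG in 16, and their direction held in all 19. Among the filterByExpr genes EREG was not called when DMSO replicate 1 or 2 or saikosaponin A replicate 2 or 3 was left out. Leaving out 1 library gave 0 to 1 genes higher and 3 to 4 lower, and 0 to 2 and 2 to 4 among the filterByExpr genes. The 1 higher gene, ERRFI1, was not called with library totals, either limma fit, the 4 libraries of low mitochondrial share, the replicate block, length offsets or both (0 higher), while filterByExpr gave 2. With length offsets 1 of the named genes was lower, 3 with a slope over all tested genes, and 0 with the block as well. ERBB2 changed sign with length offsets (0.0022; with the block 0.0028). HBEGF, never called, changed sign with upper quartile scaling (0.0471), no filter (0.0469), filterByExpr (0.0511), low mitochondrial share (0.0993) and the block (0.0193), and leaving out 1 library gave -0.18 to 0.25; ERBB3 did so with length offsets (0.14), and BTC ranged from -0.0962 to 0.50 when 1 library was left out.

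Over all tested genes 2956 were higher, against 1237 with library totals, 914 and 886 with limma at pseudocounts of 1 and 0.1, and 1074 with length offsets and block; 3190 were lower, against 1533, 2071 (slope over all genes) and 838 with block. In the pathway lists 25 were higher (16 with either limma fit) and 47 lower (12, 20 and 7 with the same 3 offset fits). Length offsets changed the sign of ADAM17 (0.12; block 0.13), ADAM10 (0.55; block 0.55; all-gene slope 0.23), RPS6KA3 (0.15; 0.15), JAK1 (0.0561; 0.0561), AP2S1 (-0.10; -0.10) and VEGFA (0.59; block 0.59; all-gene slope 0.25). The cause was not tested. On log2 counts EGFR minus ERBB3 was -0.68 and ERBB2 minus ERBB3 0.048, and per longest transcript 4 genes took another place in the order after saikosaponin A.

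Replicate numbers did not pair the libraries: deviations of same-numbered libraries correlated at -0.34, 0.29 and -0.35. Depth limits BTC and AREG most, at 10 to 135 counts per library.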
